A study of Mus musculus with 12 samples.

Results

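Of the genes listed for mouse hind limb muscle, 8 were followed here: Dmd, Utrn, Sgca, Sgcb, Sgcd, Dag1, Dysf and Cav3. They were taken by symbol as genes of the dystrophin complex and of membrane repair, and are 8 of 22923 distinct symbols. All 8 passed the filter on low values that left 11945 genes for testing. RNA of 12 samples from male FVB mice at 22 weeks of age was sequenced to ask how diet and the loss of αB-crystallin and HspB2, small heat shock proteins of muscle, bear on gene expression. Normal chow or a high fat diet was given to each genotype, which makes 4 groups of 3 libraries, called WT chow, WT high fat, KO chow and KO high fat. WT mice, titled flox, and KO mice, which lack αB-crystallin (Cryab) and Hspb2 together, were bred from heterozygous parents. The deletion is not limited to muscle, so a difference between genotypes belongs to both deletions and to any tissue in which they act. Values are FPKM, fragments scaled to transcript length and to the mapped fragments of the library, so levels of different genes are set against each other per length.

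Dystrophin, the protein of Dmd, links the actin skeleton of the muscle fibre to a complex in the sarcolemma, the membrane of the fibre. In that complex, dystroglycan binds laminin outside the fibre, and the sarcoglycans stabilise it. Utrophin, the product of Utrn, is a relative of dystrophin that is concentrated at the neuromuscular junction in adult muscle. Dysferlin takes part in resealing torn membrane, and caveolin 3 builds the caveolae of muscle. Loss of dystrophin, of a sarcoglycan or of dysferlin causes muscular dystrophy, which is what this group of genes is known for.

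Cryab lay between 412 and 837 FPKM in the 6 WT libraries and between 0.845 and 1.75 FPKM in the 6 KO libraries, and Hspb2 between 81.5 and 103 and between 0.353 and 1.92 FPKM. These levels follow the titles, while the genotype tag of 6 samples goes against them. Muscle fibre markers summed to between 54494 and 108013 FPKM. Among them Acta1 was listed at 0 in 2 libraries and Myh4 in all 12, so an exact 0 here can be a failed estimate. No member was listed at 0. Lymphocyte markers summed to between 62.0 and 68.8 FPKM in 3 libraries, namely WT chow 2, KO chow 1 and KO chow 3 (group and replicate number). In the other 9 libraries they summed to between 0.409 and 5.91 FPKM. The worth of a single read in low values puts the deepest library at 1.36 times the shallowest.

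In the GENCODE M21 annotation of GRCm38, Dmd spans 2257.3 kb of the plus strand (chrX:82948870-85206141) and Sgcd 1092.7 kb of the minus strand (chr11:46896253-47988969). Utrn spans 487.2 kb (chr10:12382188-12869365, minus strand) and Dysf 202.5 kb (chr6:84008590-84211060, plus strand). The other four are shorter, with Dag1 at chr9:108204634-108263958 on the minus strand and Sgcb at chr5:73632749-73647790 on the minus strand. Sgca lies at chr11:94962791-94976327 on the minus strand, and Cav3 at chr6:112459505-112472872 on the plus strand. Exons of Dysf overlap 2 annotated antisense genes, whose reads cannot be told apart from those of Dysf because the sources used here do not state that strand was counted. No exon of the other 7 members overlapped another gene.

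The 250 bases before the start site are printed for 4 members. Sgca varied together with Sgcb and with Cav3 between libraries (values follow), and Dmd is the gene the complex is named for. The sequences are from RefSeq on GRCm38.p6, read 5′ to 3′ on the strand of the gene. The last 53 bases of the Sgcb window lie inside its GENCODE gene model, which starts earlier than the RefSeq one. Capitals mark CANNTG, the E-box letters that myogenic factors bind, and the CArG box that serum response factor binds. They are chrX:82948620-82948869 (plus), chr11:94976328-94976577 (minus), chr5:73647738-73647987 (minus) and chr6:112459255-112459504 (plus).
Dmd: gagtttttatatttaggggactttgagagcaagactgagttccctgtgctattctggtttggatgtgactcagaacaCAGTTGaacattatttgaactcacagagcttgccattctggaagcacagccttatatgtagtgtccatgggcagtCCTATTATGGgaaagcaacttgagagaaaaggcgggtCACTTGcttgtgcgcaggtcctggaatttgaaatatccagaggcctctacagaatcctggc
Sgca: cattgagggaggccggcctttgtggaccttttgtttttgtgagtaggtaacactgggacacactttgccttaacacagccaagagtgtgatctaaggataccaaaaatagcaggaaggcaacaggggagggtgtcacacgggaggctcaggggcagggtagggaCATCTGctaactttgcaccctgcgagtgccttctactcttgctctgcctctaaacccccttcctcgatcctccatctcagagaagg
Sgcb: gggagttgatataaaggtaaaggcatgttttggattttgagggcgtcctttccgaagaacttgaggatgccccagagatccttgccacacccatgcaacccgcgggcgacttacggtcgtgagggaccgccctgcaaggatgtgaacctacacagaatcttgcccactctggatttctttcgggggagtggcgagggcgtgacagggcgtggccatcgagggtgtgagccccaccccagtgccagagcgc
Cav3: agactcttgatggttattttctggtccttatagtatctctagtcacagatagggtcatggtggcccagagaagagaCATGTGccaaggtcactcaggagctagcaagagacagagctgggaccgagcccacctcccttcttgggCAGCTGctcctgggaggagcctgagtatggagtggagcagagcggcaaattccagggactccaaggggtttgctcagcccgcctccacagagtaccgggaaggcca

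Searched on both strands, CANNTG occurred at 2 places in the Dmd window, 1 in that of Sgca, none in that of Sgcb and 2 in that of Cav3. These letters were in 66.2% of 32841 promoter windows of the same length. The narrower CAGCTG, which is contained in CANNTG, was found in Cav3 alone of the 4 windows and in 13% of all windows. A CArG box stood 98 bases before the Dmd start of the printed window and in none of the other 3 windows, against 1.47% of all windows. A second RefSeq start of Dmd lies 2099425 bases inside the gene model. Its window, not printed, held 0 CANNTG and 0 CArG matches, and the values do not say which Dmd start was used. Windows for Utrn and Sgcd are not printed, since their RefSeq starts lie 7630 and 609644 bases inside the GENCODE gene models and the values do not say which start was used.

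The level of the 8 members spanned 44.2-fold between the highest and the lowest mean over the 12 libraries. Sgca, which codes for α-sarcoglycan, had the highest mean, 146 ± 22.2 FPKM (SD, n = 12), above 95.7% of the genes tested. Dag1 followed at 47.9 ± 9.40 FPKM, Cav3 at 44.9 ± 5.82 FPKM and Sgcb at 36.8 ± 3.57 FPKM (SD, n = 12 each). Dag1 and Cav3 did not stand apart, as Dag1 was the higher of the pair in 9 of 12 libraries. Cav3 was above Sgcb in 12 of 12 libraries, although the ranges of both overlapped. Dysf stood lower, at 22.4 ± 2.79 FPKM, with no overlap with its neighbours in that order. Dmd, at 7.07 ± 0.864 FPKM, and Sgcd, at 6.62 ± 1.86 FPKM, overlapped, with Dmd the higher in 8 of 12 libraries. Utrn had the lowest mean, 3.31 ± 0.606 FPKM, and was below Sgcd in 12 of 12 libraries. The order of the subunits per length was thus not uniform within the sarcoglycans: the mean of Sgca was 22.1 times that of Sgcd.

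**Figure D1:**
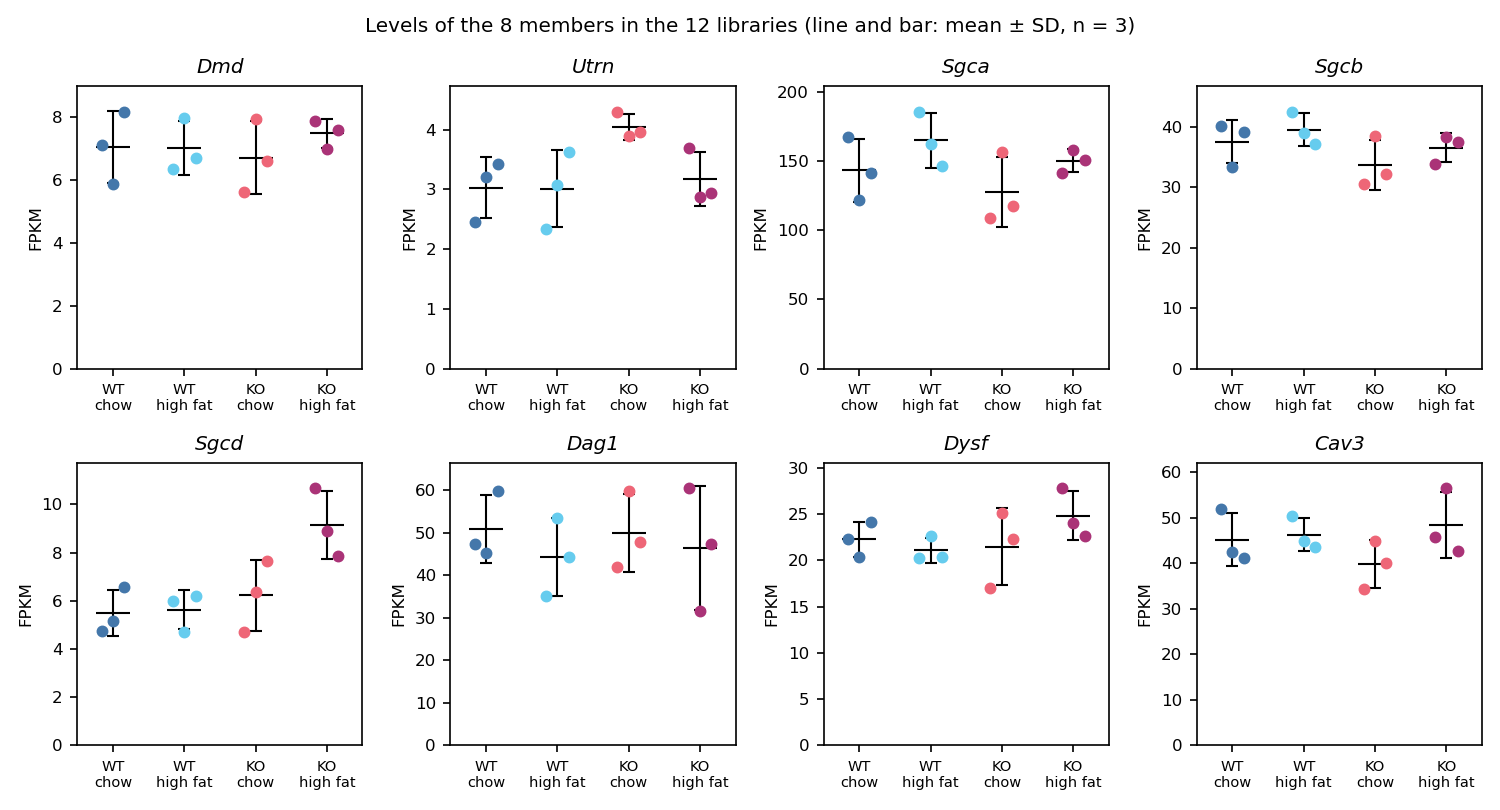
FPKM of each member (y axes start at 0) in the 3 libraries of each group, as points, with the mean and SD as a line and bar. The 3 KO libraries on high fat diet lie above all others for Sgcd, from 7.85 to 10.7 FPKM, and the 3 KO libraries on normal chow lie above those of WT mice on normal chow for Utrn, while all groups overlap for Dmd, Sgca, Sgcb, Dag1, Dysf and Cav3.

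No member passed the adjusted threshold of 0.05 in any of the 7 comparisons of the limma fit across all 11945 genes. For diet in WT mice, 0 of 8 were called against 0.1% of all genes, and 0 of 8 had an unadjusted p under 0.05 against 8.12%. For diet in KO mice the counts were 0 called against 0% and 1 at an unadjusted p under 0.05 against 11.3%. On normal chow, genotype gave 0 called against 0.0586% and 1 at the unadjusted level against 16.7%. The same comparison on high fat diet gave 0 called against 0.109% and 1 against 16.2%. In the interaction of diet and genotype, 0 were called against 0% and 0 stood at the unadjusted level against 6.25%. Averaged over diets, genotype gave 0 called against 0.862% and 1 against 26.5%. Diet averaged over genotypes gave 0 called against 0.0586% and 1 against 13.9%. No comparison thus had more than 1 member at the unadjusted level, which was Sgcd or Utrn each time. Groups that did not overlap were found for 0 members in WT mice by diet against 13.1% of genes, and for 2 in KO mice by diet against 16.9%. By genotype they were found for 1 on normal chow against 18.4% and 1 on high fat diet against 23.7%.

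The 95% interval of the log2 fold change lay between -1 and 1 for each of the 8 members in each of the 7 comparisons, on the log2(FPKM + 1) scale, which understates the change of low genes such as Utrn and Sgcd. It was narrowest over the 4 comparisons of single groups for Sgcb, from -0.39 to 0.35 at its outer bounds, and reached 0.98 for Sgcd and -0.72 for Dag1. Median log2 fold changes of the 8 members were 0.02 for diet in WT mice and 0.18 for diet in KO mice, beside -0.01 and 0.03 for all genes tested. For genotype they were -0.06 on normal chow, and 0.06 with high fat feeding, beside -0.03 and -0.01 for all genes. The diet comparison in KO mice and the genotype comparison on normal chow share the KO libraries on normal chow, of which KO chow 1 held the lowest value of 6 of the 8 members.

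**Figure D2:**
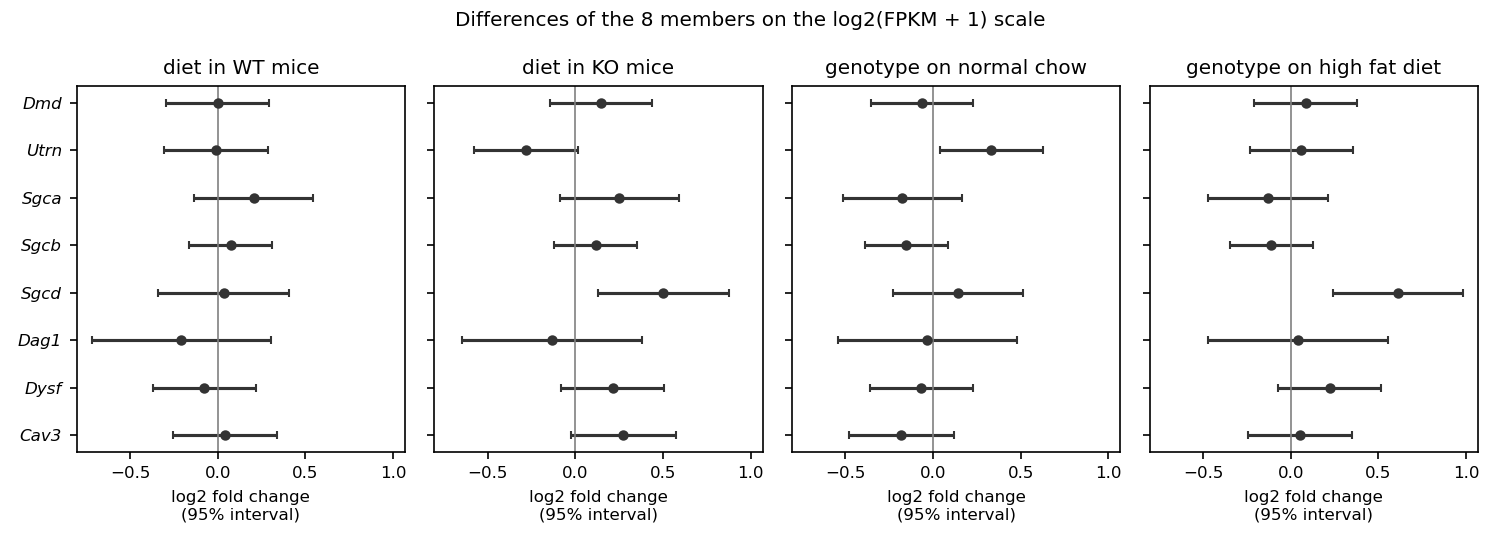
Log2 fold change of each member on the log2(FPKM + 1) scale, with its 95% interval from limma, in 4 comparisons of 3 libraries against 3, where positive values are higher on high fat diet or in KO mice. All intervals stay within -1 and 1, and the interval lies wholly above 0 only for Sgcd in 2 panels and for Utrn in 1.

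Dmd, the dystrophin gene, had a coefficient of variation of 12.2% over the 12 libraries. It measured 7.11, 5.86 and 8.18 FPKM in WT chow, 6.36, 7.99 and 6.71 FPKM in WT high fat, 5.61, 7.94 and 6.60 FPKM in KO chow and 7.89, 6.98 and 7.58 FPKM in KO high fat. All groups overlapped, with means of 6.71 ± 1.17 FPKM in KO chow to 7.48 ± 0.466 FPKM in KO high fat (SD, n = 3). Its difference by diet in WT mice was 0.00 ± 0.13 on the log2 scale (SE), and its difference by genotype averaged over diets was 0.01 ± 0.09, with an interval from -0.20 to 0.22.

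Utrn, the gene of the dystrophin relative, measured 2.46, 3.20 and 3.42 FPKM in WT chow, 2.34, 3.08 and 3.62 FPKM in WT high fat, 4.30, 3.89 and 3.96 FPKM in KO chow and 3.68, 2.86 and 2.95 FPKM in KO high fat. On normal chow every KO library was above every WT library, with means of 4.05 ± 0.220 and 3.03 ± 0.507 FPKM (SD, n = 3 each). The log2 fold change was 0.33 ± 0.13 (SE), which missed the threshold in limma (unadjusted p = 0.030, adjusted p = 0.28). On high fat diet the difference by genotype was 0.06 ± 0.13, and the interaction was -0.27 ± 0.19, with an adjusted p of 0.90. Within KO mice the high fat libraries were all below the chow libraries, at -0.28 ± 0.13 on the log2 scale (adjusted p = 0.44). Without the 3 lymphocyte-rich libraries, which include 2 of the 3 KO chow libraries, the difference on chow was 0.32 ± 0.23, with an adjusted p of 0.996. The ratio of Dmd to Utrn lay between 1.83 and 2.89 in WT chow, 1.86 and 2.71 in WT high fat, 1.30 and 2.04 in KO chow and 2.14 and 2.57 in KO high fat. Dmd was thus above Utrn in every library, and the ratio of the KO chow group overlapped that of the WT chow group.

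Among the sarcoglycans, which span the sarcolemma beside dystroglycan, Sgcd alone had unadjusted p-values under 0.05. It measured 4.74, 5.17 and 6.55 FPKM in WT chow, 6.0, 4.68 and 6.21 FPKM in WT high fat, 4.68, 6.35 and 7.64 FPKM in KO chow and 10.7, 8.90 and 7.85 FPKM in KO high fat. The KO high fat group held the 3 highest values of the 12, although the lowest of them was close to KO chow 3. On high fat diet the mean was 9.14 ± 1.43 FPKM with the deletion and 5.63 ± 0.830 FPKM without it (SD, n = 3 each), a ratio of 1.62. The log2 fold change was 0.61 ± 0.17 (SE), with an interval from 0.24 to 0.98 in limma (unadjusted p = 0.0041, adjusted p = 0.12). Over 22 other settings of the fit it lay between 0.50 and 0.70, and its adjusted p between 0.10 and 0.55, so that no setting called it.

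The difference of Sgcd by diet within KO mice was 0.50 ± 0.17 (unadjusted p = 0.013, adjusted p = 0.42), beside 0.03 ± 0.17 for diet in WT mice. The interaction, which tests the difference between those values, was 0.47 ± 0.24 (unadjusted p = 0.076, adjusted p = 0.84). Averaged over diets, KO mice were at 0.38 ± 0.12 against WT mice, and did not pass (unadjusted p = 0.0092, adjusted p = 0.095). On high fat diet macrophage markers stood higher with the deletion for 6 of 6 genes, with sums of 28.2 to 85.3 FPKM in WT high fat and 103 to 219 FPKM in KO high fat. Adipocyte markers stood higher for 6 of 6 genes, with sums of 6.20 to 414 and 401 to 562 FPKM. Markers of smooth muscle, a tissue that also expresses Sgcd, stood lower for 5 of 5 genes, with sums of 146 to 187 and 104 to 128 FPKM. No marker of these 3 cell types was listed at 0. The part of other cell types in the level of Sgcd was not tested, and in RNA of whole muscle fewer cells of a type and less RNA per cell cannot be told apart.

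Sgca measured 167, 122 and 141 FPKM in WT chow, 186, 162 and 147 FPKM in WT high fat, 109, 156 and 117 FPKM in KO chow and 141, 158 and 151 FPKM in KO high fat. Sgcb, the gene of β-sarcoglycan, measured 40.1, 33.4 and 39.2 FPKM, 42.5, 39.0 and 37.1 FPKM, 30.5, 38.4 and 32.2 FPKM, and 33.8, 38.3 and 37.4 FPKM in the same groups and order. All groups overlapped for both genes. Both had their 3 lowest values in the 3 lymphocyte-rich libraries. There Sgca lay between 109 and 122 FPKM, against 141 to 186 FPKM in the other 9, and Sgcb between 30.5 and 33.4 FPKM, against 33.8 to 42.5 FPKM. Fast fibre genes were low in the same libraries: the geometric mean of Ckm, Tnnt3, Tnni2, Atp2a1 and Ryr1 was between 4211 and 5442 FPKM there and between 5466 and 7514 FPKM in the other 9.

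By genotype on normal chow, the log2 fold change was -0.17 ± 0.15 (SE) for Sgca and -0.15 ± 0.11 for Sgcb, with adjusted p of 0.52 and 0.44. These signs turned to 0.19 ± 0.13 and 0.20 ± 0.14 when each library was scaled to its fast fibre genes, with adjusted p of 0.32 for both. That scaling moved the median of all genes by 0.30 in the same comparison, so relative to all genes both still lay lower. Without the 3 lymphocyte-rich libraries, which leaves a single KO chow library that is assumed to vary like the others, they were 0.02 ± 0.18 and -0.04 ± 0.13. For diet in KO mice the values of 0.25 ± 0.15 and 0.12 ± 0.11 became -0.06 ± 0.17 and -0.07 ± 0.13 without them. The share of lymphocyte RNA and the level of these sarcoglycans thus moved together between libraries, and its part in their level was not tested.

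The proportions of the sarcoglycan RNAs differed in their spread. The ratio of Sgca to Sgcb lay between 3.56 and 4.37 in all 12 libraries, and its group means were between 3.76 ± 0.27 and 4.16 ± 0.21 (SD, n = 3). The ratio of Sgca to Sgcd ranged more widely. It was 26.8 ± 7.38 in WT chow, 29.7 ± 5.65 in WT high fat, 21.1 ± 4.99 in KO chow and 16.7 ± 3.12 in KO high fat. On high fat diet the KO libraries, from 13.2 to 19.2, did not overlap the WT libraries, from 23.6 to 34.7.

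Dag1, whose single precursor is cut into α- and β-dystroglycan, had the largest SE of the 8 members. It measured 47.5, 45.3 and 60.0 FPKM in WT chow, 35, 53.5 and 44.3 FPKM in WT high fat, 42.0, 59.9 and 47.9 FPKM in KO chow and 60.5, 31.5 and 47.4 FPKM in KO high fat. Both the highest and the lowest of the 12 values stood in the KO high fat group, whose mean was 46.5 ± 14.5 FPKM (SD, n = 3). No comparison had an adjusted p under 0.61, and the difference by genotype averaged over diets was 0.00 ± 0.16 (SE). The 2 lowest values were in KO high fat 2 and WT high fat 1. These were also the 2 libraries in which genes with long transcripts stood lowest against genes with short ones, by -0.24 and -0.20 on the log2 scale, against -0.08 to 0.10 in the other 10. That measure is the median deviation of 2700 genes with a longest transcript of at least 4736 bases minus that of 2703 genes of at most 2167 bases, and the longest transcript of Dag1 has 5662 bases. Of the other members with long transcripts, Utrn, with 12382 bases, was also lowest in WT high fat 1, at 2.34 FPKM, and stood at 2.86 FPKM in KO high fat 2, where only WT high fat 1 and WT chow 1 were lower. Dmd, with 14910 bases, and Dysf, with 6803 bases, had their lowest values elsewhere, and the part of transcript length in the level of Dag1 was not tested.

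**Figure D3:**
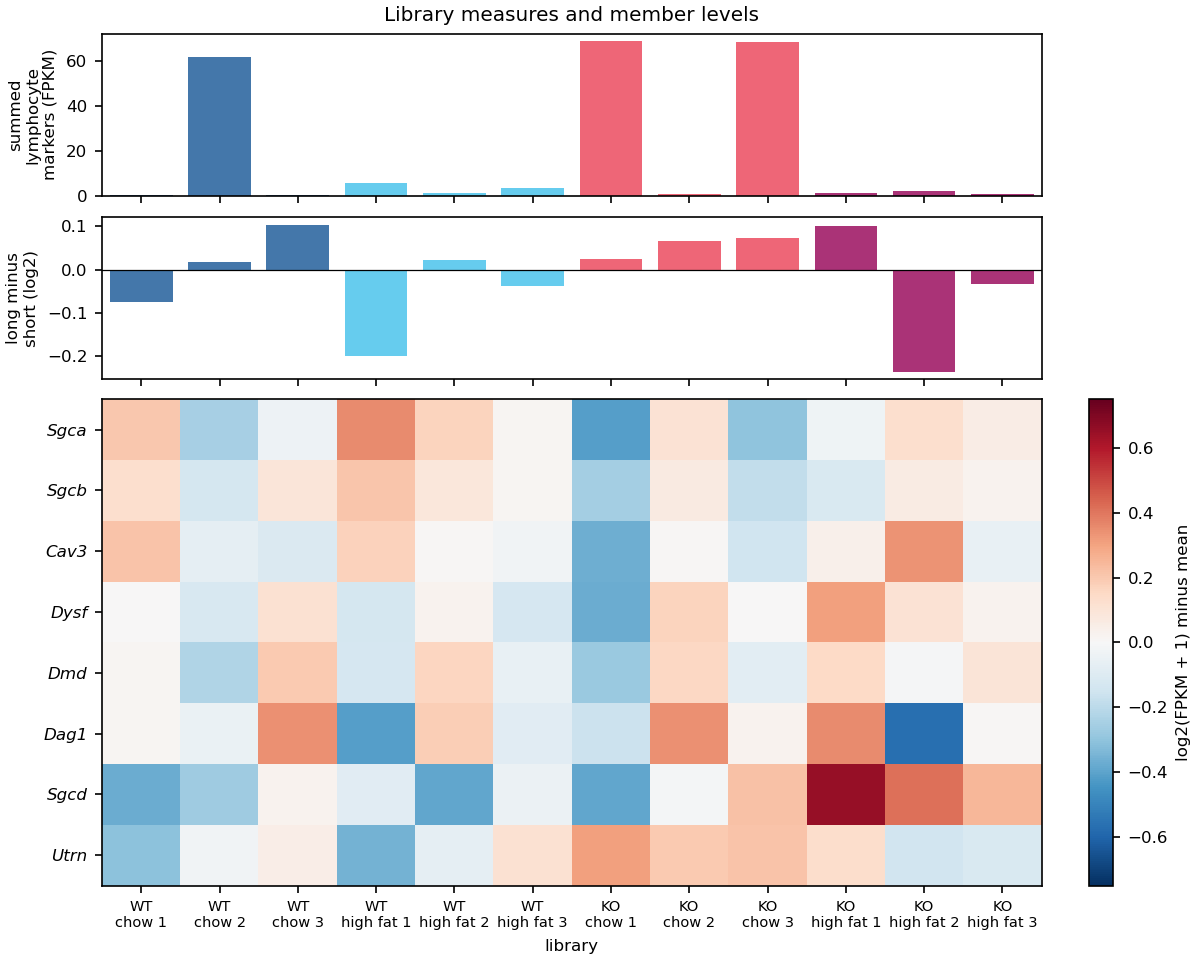
For each of the 12 libraries, the summed FPKM of 7 lymphocyte markers (top bars), the median log2 deviation of long minus short transcripts (middle bars) and the log2(FPKM + 1) of each member minus its mean over the libraries (colours, red higher and blue lower). Sgca and Sgcb are blue in the 3 libraries with sums of 62.0 to 68.8 FPKM, Dag1 is bluest in the 2 libraries at -0.24 and -0.20, and Sgcd is red in the 3 KO libraries on high fat diet.

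Dysf, the dysferlin gene, measured 22.3, 20.4 and 24.2 FPKM in WT chow, 20.2, 22.7 and 20.3 FPKM in WT high fat, 17.0, 25.2 and 22.3 FPKM in KO chow and 27.8, 24.0 and 22.7 FPKM in KO high fat. The groups overlapped, and the largest of its differences among single groups, by genotype on high fat diet, was 0.22 ± 0.13 (SE) with an adjusted p of 0.44. Cav3, the muscle caveolin, measured 51.8, 42.4 and 41.2 FPKM, 50.4, 44.8 and 43.6 FPKM, 34.3, 44.8 and 40.1 FPKM, and 45.8, 56.4 and 42.7 FPKM in the same groups and order. Its groups overlapped as well, and its largest difference, by diet in KO mice, was 0.27 ± 0.14 with an adjusted p of 0.45. For both genes KO chow 1 was the lowest library of the 12. Without the 3 lymphocyte-rich libraries the diet difference in KO mice was -0.02 ± 0.14 for Dysf and 0.10 ± 0.19 for Cav3.

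Members varied together in 2 sets. Of 28 pairs tested over the 12 libraries, 7 had an adjusted p under 0.05 for Pearson's r by permutation. Sgca and Sgcb were closest, with r = 0.95 (adjusted p = 0.00056) and rho = 0.85 (adjusted p = 0.0091). Their r was 0.88 without the 2 libraries farthest from the median and 0.80 over the 9 libraries without the lymphocyte-rich ones. The median here is that of the gene named first in a pair, so the 2 farthest libraries can differ from pair to pair. Sgca and Cav3 gave r = 0.80 (adjusted p = 0.017) and rho = 0.86 (adjusted p = 0.0091), and 0.61 and 0.60 in those subsets. Sgcb and Cav3 gave r = 0.71 (adjusted p = 0.036) and rho = 0.62 (adjusted p = 0.11), which fell to 0.41 and 0.31, so this pair rests on the libraries left out.

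Utrn ran against that set, with r = -0.77 for Sgca, -0.76 for Sgcb and -0.76 for Cav3, each with an adjusted p of 0.021 by permutation, and rho of -0.80, -0.73 and -0.71 (adjusted p = 0.017, 0.040 and 0.048). Without the 2 farthest libraries these were -0.62, -0.62 and -0.68, and over the 9 libraries -0.80, -0.70 and -0.62. Dmd and Dysf made the other set by Pearson's r, with r = 0.84 (adjusted p = 0.0034) and rho = 0.85 (adjusted p = 0.0091). Their r was 0.72 without the 2 farthest and 0.73 over the 9. Dag1 went with both by rank only. Dmd and Dag1 gave r = 0.64 (adjusted p = 0.083) and rho = 0.74 (adjusted p = 0.040), with r of 0.77 and 0.84 in those subsets. Dag1 and Dysf gave r = 0.51 (adjusted p = 0.26) and rho = 0.71 (adjusted p = 0.048), with r of 0.89 and 0.56 in them. Dmd and Utrn, the relatives in sequence, gave r = -0.07 (adjusted p = 0.90) and rho = -0.08 (adjusted p = 0.90), but r was 0.33 without the 2 farthest and 0.60 over the 9. All values of a library share its scaling and its makeup of cells.

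The genes most like each member over the 12 samples were picked for their likeness and carry no test. For Dmd they were Ptpn21 (r = 0.91), Amot (0.91) and 4933426M11Rik (0.90). For Utrn they were Sbf2 (r = 0.98), Endod1 (0.94) and Urb1 (0.93). Sgca was nearest to Cops6 (r = 0.97), Asb12 (0.96) and Cdc37 (0.96), and Sgcb to Mlf2 (0.95), Fbxw5 (0.95) and Snx24 (0.95). Sgcd was nearest to Ear11 (r = 0.88), Fam20c (0.84) and Rin1 (0.84), the lowest values of the 8, and Ear11 had rho of only 0.69. Dag1 was nearest to Fbxo40 (r = 0.98), Aff1 (0.98) and Mafg (0.97). Dysf was nearest to Myo18b (r = 0.93), Mef2c (0.92) and Akap6 (0.92), and Cav3 to Pkig (0.94) and Mrps22 (0.93). No member was among the nearest genes of another.

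No other subunit of the complex passed the threshold either. Of 13 listed, 10 were tested and 0 were called in any comparison, against 0% to 0.862% of all genes. Their median log2 fold change was -0.03 by genotype averaged over diets and -0.11 by diet averaged over genotypes, beside -0.02 and 0.01 for all genes. By diet averaged over genotypes 3 were higher and 2 were lower at an unadjusted p under 0.05 in limma, against 13.9% of all genes in either direction. For diet in KO mice 3 were higher and 0 were lower, against 11.3%. By genotype averaged over diets 1 was higher and 1 was lower, against 26.5%. Sspn, the gene of sarcospan, which sits with the sarcoglycans, had the lowest unadjusted p of the list over the comparisons, and the lowest adjusted p of the list was 0.086, by genotype averaged over diets. It measured 15.8, 16.5 and 16.2 FPKM in WT chow, 16.1, 17.7 and 15.8 FPKM in KO chow, 20.5, 19.8 and 19.6 FPKM in WT high fat and 20.1, 18.4 and 19.2 FPKM in KO high fat. Every library on high fat diet was thus above every library on normal chow, in both genotypes. By diet averaged over genotypes its log2 fold change was 0.25 ± 0.05 (SE), short of the threshold (unadjusted p = 0.00033, adjusted p = 0.091), and other settings gave 0.13 to 0.27 and adjusted p of 0.072 to 0.69.

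On the outer side of the membrane, 12 genes of laminins, their partners and the laminin-binding integrin were listed and tested, and 0 were called. By genotype averaged over diets, 8 of 12 had an unadjusted p under 0.05 and were higher in KO mice and 1 was lower, against 26.5% of all genes in either direction, and the median was 0.27. In the same comparison macrophage and adipocyte markers stood higher for 6 of 6 genes each, and their part in these values was not tested. Itgb1, the integrin β1 gene, had the lowest unadjusted p over the comparisons, with 60.6 FPKM as the mean of 6 WT and 77.6 FPKM as the mean of 6 KO libraries and no overlap. The difference was 0.34 ± 0.08 on the log2 scale (adjusted p = 0.059), and other settings gave adjusted p of 0.040 to 0.37. It was called only without KO chow 2, at 0.35 with an adjusted p of 0.040. Of the 17 enzymes that build the laminin-binding glycan of dystroglycan, 15 were found and tested and 0 were called. Their median by genotype averaged over diets was -0.04. The lowest unadjusted p over the comparisons belonged to Large, a glycosyltransferase of that glycan, at 0.40 ± 0.12 for diet in KO mice (unadjusted p = 0.0059, adjusted p = 0.38). The lowest adjusted p of the list was 0.12, by genotype averaged over diets.

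Genes of membrane repair other than Dysf gave a similar picture. Of 22 listed, 21 were tested and 0 were called in any comparison, while 9 had an unadjusted p under 0.05 and were higher in KO mice averaged over diets and 1 was lower, with a median of 0.16. The share of all genes at that level, in either direction, was 26.5%. By genotype on normal chow 0 were higher and 2 were lower at that level, against 16.7% of all genes, with a median of 0.09. On high fat diet 9 were higher and 0 were lower, against 16.2%, with a median of 0.28. In the interaction of diet and genotype 0 were called, with a lowest adjusted p of 0.68 in limma. There 4 were higher and 0 were lower at an unadjusted p under 0.05, against 6.25% of all genes. Of the 21 genes, 20 had a positive interaction, with a median of 0.26 beside 0.03 for all genes. Macrophage and adipocyte markers stood higher in KO mice on high fat diet for 6 of 6 genes each, and their part in these values was not tested. Anxa6, an annexin that gathers at membrane lesions, had the lowest unadjusted p of the list over the comparisons, while the lowest adjusted p of the list, 0.059, was by genotype averaged over diets. It measured 78.3, 73.2 and 85.2 FPKM in WT high fat and 95.4, 109 and 102 FPKM in KO high fat, without overlap. The difference was 0.37 ± 0.08 on the log2 scale (unadjusted p = 0.0011, adjusted p = 0.087), and other settings gave adjusted p of 0.063 to 0.73. On normal chow the same gene measured 81.3, 85.9 and 81.5 FPKM in WT chow and 88.1, 83.1 and 85.8 FPKM in KO chow, which overlapped. Of 7 caveola genes beside Cav3, 7 were tested and 0 were called, with a median of 0.16 by genotype averaged over diets. Prkcdbp, a cavin gene, had the lowest unadjusted p over the comparisons, at 0.78 ± 0.25 for diet in KO mice (unadjusted p = 0.011, adjusted p = 0.42). The lowest adjusted p of the list was 0.19, by genotype averaged over diets.

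Among genes of muscle regeneration, unlike the members, some passed the threshold by genotype. Of 12 listed, 9 were tested, and 2 were called as higher in KO mice averaged over diets, against 0.645% of all genes called as higher and 0.218% as lower. At an unadjusted p under 0.05, 7 were higher and 1 was lower, against 26.5% of all genes in either direction, and the median of the 9 was 1.35 on the log2 scale. Myl4, an embryonic and atrial myosin light chain gene, measured 8.06, 8.74 and 8.39 FPKM in WT chow, 18.4, 24.7 and 40.7 FPKM in KO chow, 8.44, 5.93 and 12.1 FPKM in WT high fat and 28.9, 73.1 and 30.3 FPKM in KO high fat. Every KO library was above every WT library, and it rose by 1.83 ± 0.26 (SE) on the log2 scale (adjusted p = 0.017). Cdkn1a, the gene of a cell cycle inhibitor, had means of 10.1 FPKM over 6 WT and 31.1 FPKM over 6 KO libraries, also without overlap, and rose by 1.48 ± 0.24 with an adjusted p of 0.025. Macrophage and adipocyte markers stood higher in KO mice as well, for 6 of 6 genes in each list, with medians of 0.95 and 2.04. Of the 6 macrophage markers 1 was called, Emr1, named after its values were seen, at 0.89 ± 0.16 (SE, adjusted p = 0.042 in limma). It was called in 11 of 21 other settings and in 6 of 12 fits that left out a library. Among 5 neuromuscular junction genes 2 were called as higher, against 0.645% of all genes. These were Chrne and Colq, both named after their values were seen. At an unadjusted p under 0.05 in limma, 2 of the 5 were higher in KO mice and 1 was lower. The lower gene was Rapsn, also named after its values were seen, at 13.4 to 18.9 FPKM in KO and 16.2 to 23.0 FPKM in WT libraries. Chrne, a subunit gene of the acetylcholine receptor, rose by 0.79 ± 0.15 (SE) on the log2 scale (adjusted p = 0.046), but was called in only 11 of 21 other settings and 5 of 12 fits that left out a library. The call was lost without WT chow 1 or 3, WT high fat 2, KO chow 1 or 3, or KO high fat 1 or 2, with adjusted p from 0.061 to 0.13. Its adjusted p was 0.072 with the replicate block and 0.33 without the 3 lymphocyte-rich libraries. Colq, the gene of the collagen tail of acetylcholinesterase, rose by 1.03 ± 0.11 (SE) on the log2 scale (adjusted p = 0.0026), with no overlap between 6 WT and 6 KO libraries, and was called in 21 of 21 other settings. Utrn, whose protein sits at that junction, was at 0.20 ± 0.09 in the same comparison, with an adjusted p of 0.21. The part of other cell types and of fibre makeup in these values was not tested.

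The calls of Myl4 and Cdkn1a depended on the libraries used. Without the 3 lymphocyte-rich libraries the log2 fold changes were 1.80 and 1.43, with adjusted p of 0.19 and 0.22. Myl4 was called in 11 of 12 fits that left out a library, and not without WT chow 1 (adjusted p = 0.056). Cdkn1a was called in 7 of those 12 fits. The call was lost without WT chow 1 (adjusted p = 0.088), WT high fat 1 (0.051), KO chow 3 (0.053), KO high fat 1 (0.067) or KO high fat 2 (0.069), and also with no filter on low values (0.053) and with fast fibre scaling (0.056). The log2 fold change stayed between 1.62 and 1.96 for Myl4 and between 1.33 and 1.61 for Cdkn1a in these fits.

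**Figure D4:**
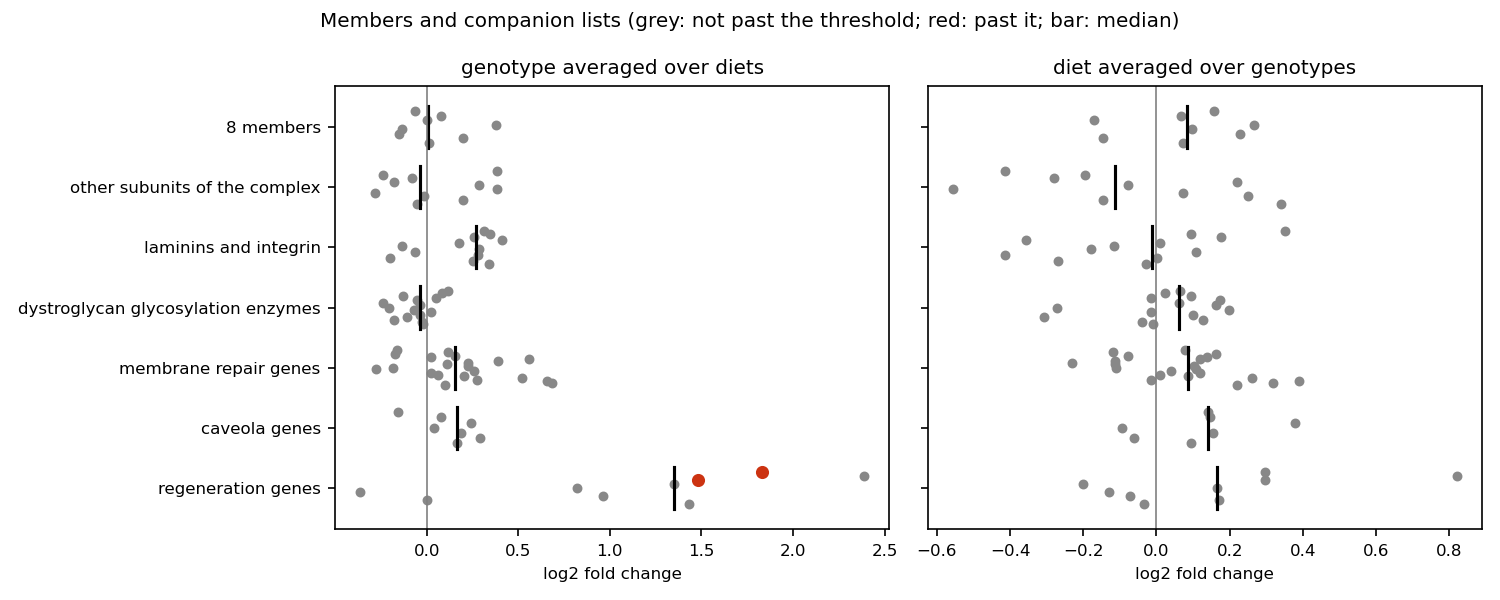
Log2 fold change on the log2(FPKM + 1) scale of the 8 members and of each tested gene of 6 companion lists, KO minus WT averaged over diets (left) and high fat minus chow averaged over genotypes (right); the 2 x axes differ in range, red points passed the adjusted threshold of 0.05 and black bars are list medians. The members and the other subunits of the complex lie around 0 on the left, while the regeneration genes have a median of 1.35 and hold the only 2 red points, Cdkn1a and Myl4.

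**Figure D5:**
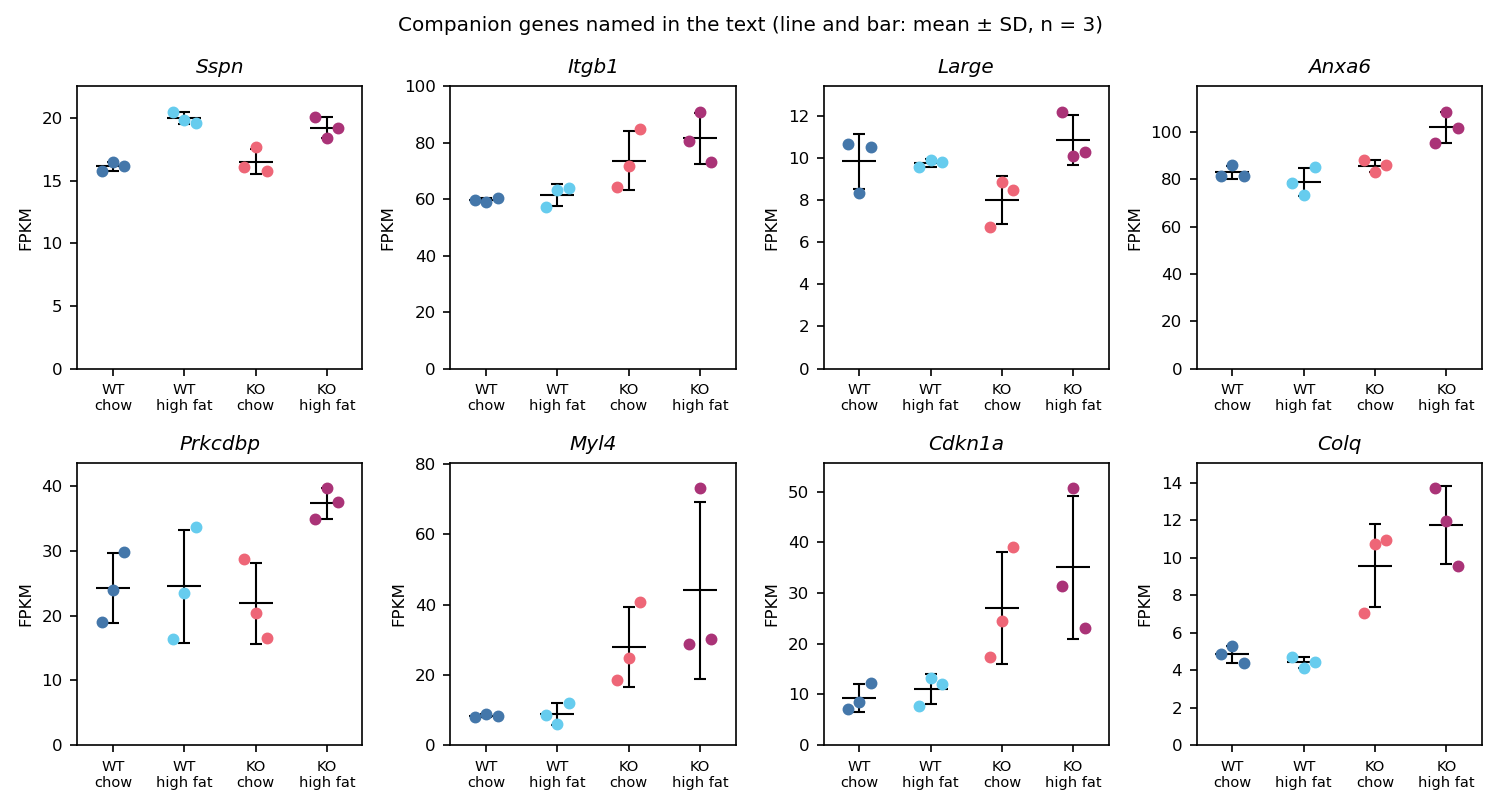
FPKM of 8 genes outside the members (y axes start at 0) in the 3 libraries of each group, with the mean and SD as a line and bar. Sspn is higher in the high fat libraries of both genotypes, and Itgb1, Myl4, Cdkn1a and Colq are higher in the KO libraries of both diets without overlap.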

How the data were processed

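RNA of proximal hind leg muscle was sequenced in 12 samples, 3 in each of 4 groups. The authors deposited 1 FPKM value per gene and library, made with TopHat2 2.0.8b, Cuffdiff 2.1.1 and mm10 according to the submitters' processing notes. FPKM is scaled to length and library size and holds no read counts. Samples were grouped by title, and the genotype tag of 6 samples conflicts with it. The labels do not state that libraries are separate mice, so p-values measure the spread between these samples.

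A repeated symbol was represented by its row of highest mean. Genes with at least 1 FPKM in at least 3 samples were tested on log2(FPKM + 1) with limma 3.58.1 in R 4.3.3 (4 group means, 8 residual degrees of freedom, intensity trend), adjusted by Benjamini-Hochberg over 11945 genes. The fit was tested on simulated data. Permutation p-values are two-sided, from 100000 permutations in NumPy 2.4.6. Named genes are the 8 members, Cryab and Hspb2, genes of the companion lists past the threshold, the gene with the lowest p of each list, and the 3 genes nearest to each member, of which 1 is not reported here. Myod1, Myh8, Emr1, Chrne, Colq, Rapsn and Drp2 were added after their values were seen. Members and lists were chosen with earlier results of these data known. The closing section gives the alternatives.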

Additional observations from a re-analysis of the deposited data

How the results depend on the processing

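No member passed the threshold under any of 22 other settings, over 1208 values for 56 log2 fold changes. The sign differed from the reported value in 102 of these, and in 3 both values exceeded their SE. All 3 came from scaling to 5 muscle fibre genes: Sgca at 0.19 and Sgcb at 0.20 by genotype on normal chow, and Sgcb at -0.16 by diet in KO mice. That scaling, chosen after seeing the data like the setting without the 3 lymphocyte-rich libraries, moved the median of all genes by 0.30 and -0.24 in these comparisons, and by 0.18 by genotype averaged over diets.

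Counts over all genes were less stable. By genotype averaged over diets 103 genes were called, and the count was 101 with a pseudocount of 0.1, 42 without the filter, 99 with median-of-ratios size factors, 195 with quantile normalization, 11 without the lymphocyte-rich libraries, 20 with fibre scaling, and 10 to 1200 when 1 library was left out. The lowest count came without WT chow 1 and the highest without KO chow 2. In the other comparisons the reported count, its range over the settings that left out no single library, and its range when 1 library was left out were 12, 1 to 12 and 1 to 32 for diet in WT mice, 0, 0 to 15 and 0 to 10 for diet in KO mice, 7, 4 to 8 and 4 to 14 for genotype on chow, 13, 5 to 27 and 4 to 82 for genotype on high fat diet, 0, 0 to 1 and 0 to 1 for the interaction, and 7, 1 to 9 and 1 to 18 for diet averaged over genotypes. Of the 103, 74.8% were higher in KO mice, against 61.5% of those called after quantile normalization. With the replicate block 40 genes were called, and Sgcd by genotype on high fat diet had an adjusted p of 0.17. Same-numbered samples did not deviate together throughout, with correlations from -0.81 to 0.39, so the numbers are not taken to pair the samples. Fold changes of Cryab and Hspb2 were called under every setting. FPKM values hold no read counts, so counting error of low genes such as Utrn could not be given.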

Other observations

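Drp2, a relative of dystrophin that is expressed in Schwann cells, was chosen after its values were seen. It measured 1.41, 1.29 and 5.96 FPKM in WT chow, 4.73, 5.38 and 4.0 FPKM in KO chow, 1.44, 3.24 and 2.36 FPKM in WT high fat and 3.40, 1.96 and 1.75 FPKM in KO high fat. Its 4 highest values stood in the 4 libraries with the highest sums of Schwann cell markers, which were 482 FPKM in WT chow 3 and 386, 448 and 280 FPKM in KO chow 1, 2 and 3. The other 8 libraries had sums between 103 and 231 FPKM.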
